A study of Mus musculus with 72 samples.

Results

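Exon usage in the suprachiasmatic nucleus (SCN) was compared between day and night in mice kept without light cues. The comparison held 24 of the 72 samples of the study: 12 SCN samples of circadian times 4 and 8 (CT4 and CT8, day) and 12 of CT16 and CT20 (night). Samples were chosen by tissue and circadian time alone, with 6 of each diet on each side. Another 12 SCN samples, of CT0 and CT12, were used for description only. The measure was the number of reads counted in each exon bin, a stretch of a gene's exons that no annotated exon edge divides further.

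All mice were C57BL/6, between 8 and 12 weeks old per the protocol, and single-housed. Mice ate either a diet lacking methionine and choline (MCD) or its isocaloric control for 11 days. All mice had 10 days of a 12:12 h light/dark cycle and were then held in constant darkness on day 11, when tissue was taken every 4 h. Each combination of diet and time held 3 mice, of which replicates 1 and 2 were labelled male and replicate 3 female, although the protocol text speaks of males. The SCN was cut out of frozen brain sections by laser microdissection, and polyadenylated RNA was sequenced with a stranded kit.

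The SCN, a paired nucleus of the hypothalamus, keeps the daily rhythms of the body in step, and its neurons fire faster by day than by night. A gene can yield different transcripts through alternative start sites, exons that are included or skipped, introns that are kept, and alternative 3′ ends. Reads in a bin that belongs to only some transcripts then change relative to the rest of the gene, even where the gene's total does not. In tissues outside the brain, daily changes of splicing have been tied to body temperature, to SR proteins and to the cold-inducible RNA-binding proteins.

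Day samples held 47930000 ± 15220000 counts in bins (SD, n = 12) and night samples 39070000 ± 12540000 (SD, n = 12), a difference within the spread (two-sided permutation test, p = 0.13, adjusted p = 0.24 over 11 sample properties). The 11 SCN neuron markers had a summed level of 3412 to 4959 CPM (counts scaled to a fixed sample total) by day and 2314 to 3158 CPM by night (permutation adjusted p = 0.00022). That list holds genes that cycle, such as Avp, Prok2 and Rgs16. The 7 markers found of 8 for hypothalamus outside the SCN summed to 97 to 281 CPM by day and 73.0 to 203 CPM by night (permutation adjusted p = 0.13). Every marker found was detected in all 8 lists of cell types, so detection alone does not tell the tissues apart. Summed blood markers, all 5 detected, were higher at night, at 36.7 to 766 CPM against 31.0 to 206 CPM by day (permutation adjusted p = 0.015). Endothelial markers (7 of 7 detected) ranged from 130.0 to 193 CPM by day and 146 to 226 CPM by night, and ependymal markers (5 of 5) from 212 to 454 CPM by day and 147 to 345 CPM by night (permutation adjusted p = 0.044 for each). The part of these differences in the results below was not tested. In bulk tissue, fewer cells of a type and less RNA per cell cannot be told apart.

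Few genes were called for a change of exon usage between day and night. Of 12776 genes with 172547 bins tested, 11 passed an adjusted p of 0.05, which is 0.0861% of the genes (edgeR quasi-likelihood test of each bin against its gene, Simes p per gene, Benjamini-Hochberg adjustment). The gene-level F test of the same fit called 29, which is 0.227%. The 11 were Eef1a1, Kif1bp, Rcan1, Nnat, Uchl1, Celf3, Sphk2, Hnrnpk, Upp2, Rian and Srsf5. At the level of single bins 16 passed, 0.00927% of those tested, of which 5 had a higher share of their gene at night and 11 a lower share. In the same samples, 2352 of the 12776 genes changed in their total, 18.4%, with 1188 higher and 1164 lower at night. Of the 11 genes with changed usage, 7 were also among those whose total changed.

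The 11 genes were grouped by whether DESeq2 also called them. In Kif1bp, Rcan1, Nnat, Sphk2 and Upp2 at least 9 of 12 night samples lay beyond every day sample, in Srsf5 7 and in Celf3 5 did, and DESeq2, which gives each bin its own spread, also called all 7. DESeq2 did not call Eef1a1, Uchl1, Hnrnpk and Rian. In their leading bins (the bins with the lowest p) 6, 4, 0 and 3 of 12 night samples lay beyond every day sample in the direction of the change. Shares of the leading bin varied many-fold among samples of one side in these 4 and also in Kif1bp, Rcan1 and Sphk2. DESeq2 called 80 genes in all, 0.626% of those tested, and limma called 45, 0.352%. These 2 tools shared 25 genes, and 6 genes were called by all 3 tools. When all samples of 1 replicate number were left out in turn (8 samples a side), Kif1bp and Eef1a1 kept their calls each time, and the other 9 genes lost theirs at least once.

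Rcan1 encodes an inhibitor of calcineurin, the calcium-dependent phosphatase, and has alternative first exons with promoters of their own. The promoter windows are shown because 1 of the first exons of Rcan1 changed between day and night. In the GENCODE M21 annotation (GRCm38), bins 12 and 13 are the first exon of transcript Rcan1-201, and bin 15 is the first exon of Rcan1-202 and Rcan1-206, which starts 66.1 kb upstream. The 250 bases before each start, from RefSeq (GRCm38.p6), lie at chr16:92400079-92400328 and chr16:92466170-92466419, both on the minus strand. They are given 5′ to 3′, with each GGAAA or its reverse complement TTTCC, the core bases bound by the calcineurin-controlled NFAT factors, in capitals.
Promoter of Rcan1-201: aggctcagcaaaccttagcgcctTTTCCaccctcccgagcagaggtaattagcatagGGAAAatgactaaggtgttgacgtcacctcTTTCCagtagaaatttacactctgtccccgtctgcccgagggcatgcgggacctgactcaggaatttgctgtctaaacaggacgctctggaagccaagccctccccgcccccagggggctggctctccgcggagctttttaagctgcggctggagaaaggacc
Promoter of Rcan1-202: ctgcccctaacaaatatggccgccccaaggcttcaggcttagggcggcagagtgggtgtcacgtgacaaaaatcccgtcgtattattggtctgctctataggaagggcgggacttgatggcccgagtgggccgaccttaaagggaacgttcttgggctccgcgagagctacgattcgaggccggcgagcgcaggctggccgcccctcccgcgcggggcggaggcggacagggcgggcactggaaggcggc
The Rcan1-201 window held 3 matches to GGAAA on both strands together, and 6.39% of the 32851 promoter windows of this length held as many. It also held 1 TGACGTCA, the cAMP response element, which 1.55% of the windows held. The Rcan1-202 window held neither, and it held 1 CACGTG, the E-box bound by the clock factors, which 6.02% of the windows held. A match describes the letters and does not show binding.

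The first exon of Rcan1-201 was used far less at night. By day, bin 12 took between 0.755% and 2.39% of the counts of Rcan1, with a median of 1.90%. At night it took between 0.0% and 0.787%, with a median of 0.336%. In 10 of 12 night samples the share was below the lowest day sample. The fitted change of bin 12 relative to its gene was -2.36 on the log2 scale (edgeR adjusted p for the gene 1.8e-08), and the mean log2 share differed by -2.74 ± 0.52 (SE, n = 12 a side). The adjoining bin 13 changed by -2.30. In absolute terms bin 12 went from 2.48 ± 0.98 CPM (SD, n = 12) by day to 0.289 ± 0.22 CPM (SD, n = 12) at night. The total of Rcan1 also fell, by 0.80 on the log2 scale (edgeR adjusted p = 2.0e-11). Bin 15, the other first exon, did not pass the test: its share was 4.78% ± 0.86 (SD, n = 12) by day and 6.28% ± 1.2 (SD, n = 12) at night, with 7 of 12 night samples above the highest day sample and a fitted change of 0.39 (log2, edgeR adjusted p for the bin 1.0). At CT0 and CT12, bin 12 took 0.786% and 0.438% on average, between the mean of CT4 (1.95%) and those of CT16 (0.344%) and CT20 (0.334%).

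Kif1bp, which encodes a protein that binds kinesins of the KIF1 family and acts in axon growth, used a distal last exon less at night. Bins 1 and 2 form the last exon of Kif1bp-202, part of it shared with Kif1bp-208, at chr10:62538626-62540056 (GRCm38, minus strand), 18.4 kb beyond the end of the main transcript. By day bin 1 took 0.895% to 4.13% of the gene's counts, with a median of 1.81%. At night it took 0.0% to 0.918%, with a median of 0.231%, and 11 of 12 night samples lay below every day sample. For bin 2 all 12 night samples lay below the lowest day sample, at no more than 0.235% against at least 0.238% by day. The fitted changes were -2.45 for bin 1 and -2.88 for bin 2 (log2, relative to the gene, edgeR adjusted p for the gene 3.9e-12). The total of Kif1bp was 155 CPM by day and 152 CPM at night, and its log2 change of -0.04 did not pass the test (edgeR adjusted p = 0.68). Kif1bp kept its call in all 38 alternatives tried.

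Sphk2, a kinase that makes the signalling lipid sphingosine 1-phosphate, had less of its 3′ end at night. Bin 1 is an extension of 800 bases found in Sphk2-202 alone (chr7:45709467-45710266, GRCm38, minus strand). Its share was 3.52% to 22.6% by day, with a median of 9.68%, and 0.523% to 5.06% at night, with a median of 2.10%. In 9 of 12 night samples it lay below the lowest day sample. The fitted change was -2.04 (log2, edgeR adjusted p for the gene 7.2e-05), while the total of Sphk2 rose by 0.73 (log2, edgeR adjusted p = 2.3e-08). Of the 800 bases, 737 overlap Dbp, a clock output gene read from the opposite strand. Dbp stood at 372 CPM by day and 76.4 CPM at night, and bin 1 of Sphk2 at 1.56 ± 0.68 CPM (SD, n = 12) by day and 0.616 ± 0.39 CPM (SD, n = 12) at night. Across the 6 times, the share of the bin was 5.32%, 12.4%, 8.75%, 4.13%, 2.61% and 2.24% from CT0 to CT20. The mean of Dbp over the same times was 234, 382, 363, 164, 75.9 and 77.0 CPM. Whether the reads were counted with regard to strand is not given in the sources used here, and the part of Dbp transcripts in this bin was not tested.

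Nnat, an imprinted gene for a small membrane protein of developing and neuroendocrine cells, had lower shares in 3 neighbouring bins at night. The leading bin 11 is a coding stretch of 88 bases, and bins 10 and 12 belong to retained-intron transcripts alone. All 3 lie inside Blcap, which is read from the opposite strand. The share of bin 11 was small, at 0.171% to 0.272% by day with a median of 0.206%, and 0.0662% to 0.162% at night with a median of 0.103%. All 12 night samples lay below the lowest day sample. The fitted changes were -0.92 for bin 11, -0.84 for bin 10 and -1.58 for bin 12 (log2, edgeR adjusted p for the gene 9.2e-06). The total of Nnat fell by 0.49 (log2, edgeR adjusted p = 0.00011). limma did not call Nnat (adjusted p = 0.99).

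Upp2 encodes a uridine phosphorylase, an enzyme of pyrimidine salvage. It showed a shift toward upstream noncoding exons at night. Bins 4 and 5 belong to processed transcripts, among them Upp2-206, which starts at the upstream promoter, as does the coding transcript Upp2-202. Bin 4 lies 171.3 kb upstream of the downstream promoter window, where the coding transcripts Upp2-201 and Upp2-203 start. The share of bin 4 was 2.69% to 14.9% by day, with a median of 6.71%, and 12.4% to 23.8% at night, with a median of 18.3%. In 10 of 12 night samples it was above the highest day sample. The fitted change was 1.17 (log2, edgeR adjusted p for the gene 0.00075). Bin 4 itself went from 2.29 ± 1.0 CPM (SD, n = 12) by day to 3.98 ± 1.1 CPM (SD, n = 12) at night, while the total of Upp2 fell by 0.39 (log2, edgeR adjusted p = 0.0058). The means of CT0 (10.2%) and CT12 (8.56%) were nearer to those of the day times (8.89% and 7.19%) than to those of the night times (18.3% and 17.9%).
The 250 bases before the upstream and the downstream start (RefSeq, GRCm38.p6, chr2:58567084-58567333 and chr2:58754934-58755183, plus strand) are shown because Upp2 has transcripts that begin at either of these promoters, 187.8 kb apart. Capitals mark GGAAA or TTTCC as above.
Upstream promoter of Upp2: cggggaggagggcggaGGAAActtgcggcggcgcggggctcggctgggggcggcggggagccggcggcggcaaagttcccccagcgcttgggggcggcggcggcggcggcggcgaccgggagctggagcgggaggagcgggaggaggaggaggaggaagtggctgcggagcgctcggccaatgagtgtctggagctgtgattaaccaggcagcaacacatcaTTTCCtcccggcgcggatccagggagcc
Downstream promoter of Upp2: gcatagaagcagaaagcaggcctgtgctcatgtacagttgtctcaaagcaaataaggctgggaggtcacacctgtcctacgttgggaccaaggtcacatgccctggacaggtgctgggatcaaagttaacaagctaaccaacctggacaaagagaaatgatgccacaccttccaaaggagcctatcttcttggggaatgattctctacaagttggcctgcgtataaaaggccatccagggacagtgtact
The downstream window held 1 TATAAA, the TATA box, which 12.4% of all windows held, and the upstream window held none. Neither window held the E-box CACGTG or TTATGTAA, a D-box sequence of the kind bound by Dbp.

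**Figure D1:**
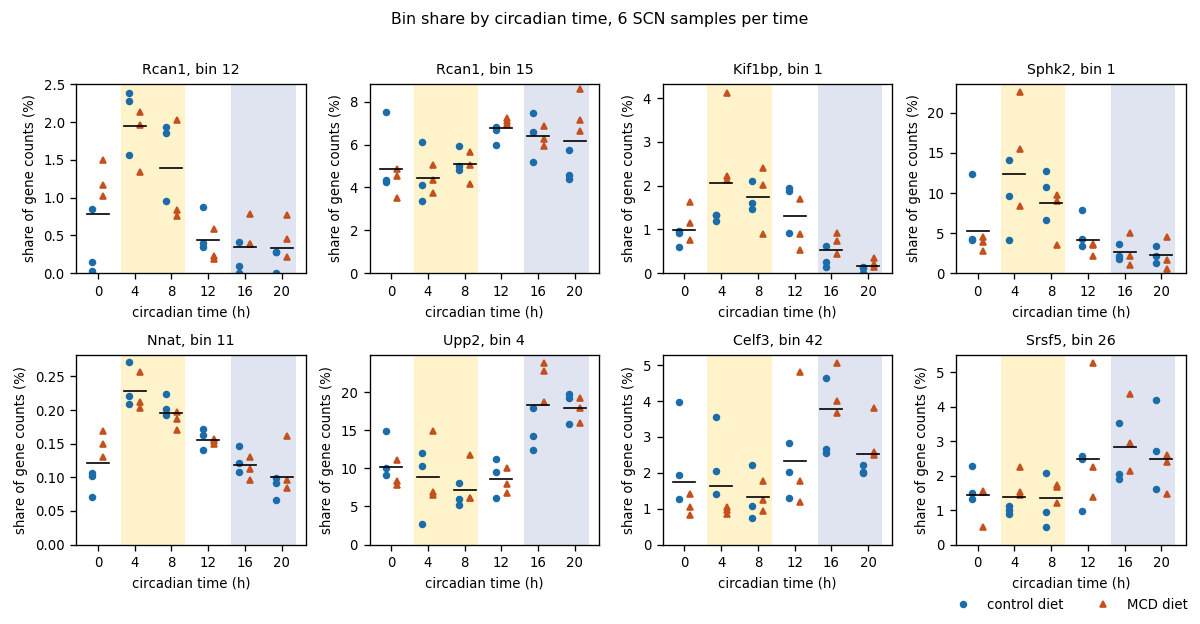
Share of the gene's counts (%, vertical axis) taken by 8 bins against circadian time (h, horizontal axis); each point is 1 SCN sample (circles control diet, triangles MCD diet), black lines are means of 6 samples, yellow marks the day times and blue the night times. Bins of Rcan1 (bin 12), Kif1bp, Sphk2 and Nnat are lower at CT16 and CT20 than at CT4 and CT8, and those of Upp2, Celf3 and Srsf5 are higher. In bin 15 of Rcan1, which did not pass the test, 7 of 12 night samples lie above the highest day sample.

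Bins of retained-intron transcripts of 2 genes for RNA-binding proteins took a larger share at night. Celf3 encodes a neuronal splicing factor of the CELF family, and its bin 42 is a stretch of 853 bases kept in Celf3-210. Srsf5 encodes an SR protein, a splicing factor rich in serine and arginine, and its bin 26 covers 590 bases kept in 3 transcripts. Both edges of these bins are shown because only one edge of each has the letters of an intron's end, from GENCODE M21 transcripts (GRCm38), with the bases of the bin in capitals.
Celf3 bin 42, upstream edge, chr3:94489588-94489627, plus strand: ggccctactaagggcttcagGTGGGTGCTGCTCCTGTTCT
Celf3 bin 42, downstream edge, chr3:94490441-94490480, plus strand: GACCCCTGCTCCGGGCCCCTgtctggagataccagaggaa
Srsf5 bin 26, upstream edge, chr12:80948485-80948524, plus strand: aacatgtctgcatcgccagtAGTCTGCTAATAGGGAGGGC
Srsf5 bin 26, downstream edge, chr12:80949075-80949114, plus strand: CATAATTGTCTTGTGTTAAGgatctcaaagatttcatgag
The bin of Celf3 opens with GT and that of Srsf5 ends with AG, the letters at the ends of most introns. At the other edges the bin of Celf3 ends with CT and that of Srsf5 opens with AG, so neither bin is a whole intron with these letters at both ends.

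The share of bin 42 of Celf3 was 0.745% to 3.54% by day, with a median of 1.15%, and 2.01% to 5.07% at night, with a median of 2.63%. The sides overlapped, with 5 of 12 night samples above the highest day sample. The fitted change was 1.12 (log2, edgeR adjusted p for the gene 3.8e-05). The share of bin 26 of Srsf5 was 0.503% to 2.25% by day, with a median of 1.33%, and 1.47% to 4.37% at night, with a median of 2.5%. Here 7 of 12 night samples were above the highest day sample, and the fitted change was 0.97 (log2, edgeR adjusted p for the gene 0.018). Srsf5 lost its call in 9 of the 24 fits that each left out 1 sample, with a log2 change of 0.84 to 1.14 over all alternatives, and it was also lost with the replicate number as a block (0.94, edgeR adjusted p = 0.061). In both genes the total fell at night, by 0.69 for Celf3 (log2, edgeR adjusted p = 2.2e-09) and by 0.43 for Srsf5 (log2, edgeR adjusted p = 0.0066). The bins themselves stood at 3.63 ± 1.5 CPM by day and 4.95 ± 1.5 CPM at night for Celf3, and at 4.25 ± 1.3 and 6.25 ± 2.6 CPM for Srsf5 (SD, n = 12 a side).

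Bins found in retained-intron transcripts alone numbered 2203 among those tested and matched to GENCODE M21. Their median change was 0.05 on the log2 scale, and 54.9% of them were higher at night relative to their gene, against -0.02 and 45.4% over all matched bins. Other bins with no coding part stood at 0.008 and 51.8%, part-coding bins at 0.008 and 53.0%, and coding bins at -0.04 and 42.3%. In genes whose total was lower at night, the median of 211 retained-intron bins was 0.17, beside -0.03 for all matched bins. In genes whose total was higher, the median of 236 retained-intron bins was -0.04, beside -0.01 for all matched bins. These are descriptions with no test. By edgeR, 4 of the retained-intron bins passed, beside 0.00927% of all bins, 2 higher at night (Celf3 and Srsf5) and 2 lower (both in Nnat). DESeq2 called 11, 0.499% of the 2203 beside 0.0552% of the bins to which it gave an adjusted p, of which 7 were higher and 4 lower.

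**Figure D2:**
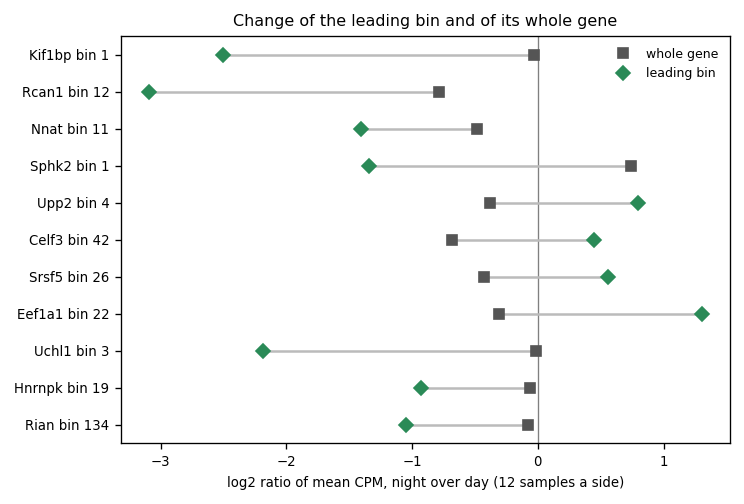
Log2 ratio of the mean CPM at night over the mean by day (horizontal axis, 12 samples a side) for the leading bin (diamonds) and the whole gene (squares) of the 11 genes. In Upp2, Celf3, Srsf5 and Eef1a1 the bin lies right of 0 and the gene left of it, in Sphk2 the reverse, and in Kif1bp and Uchl1 the gene lies near 0 while the bin lies below -2.

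The other 4 genes were not called by DESeq2. Uchl1 encodes a neuronal ubiquitin hydrolase, and its bin 3 is an exon of 12 bases. Hnrnpk encodes an RNA-binding protein of the hnRNP family, and its bin 19 is a whole exon of 16 bases in Hnrnpk-201. These are shown within their coding transcripts (GENCODE M21, GRCm38), with the bin in capitals, because bins this short rest on reads that reach across them.
Uchl1 bin 3 (bin at chr5:66676436-66676447, plus strand): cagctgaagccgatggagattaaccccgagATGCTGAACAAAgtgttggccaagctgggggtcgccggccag
Hnrnpk bin 19 (bin at chr13:58393853-58393868, minus strand): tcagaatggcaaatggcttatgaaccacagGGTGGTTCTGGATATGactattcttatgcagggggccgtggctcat
The share of bin 3 of Uchl1 ran from 0.00724% to 1.75% by day, with a median of 0.820%, and from 0.0% to 0.953% at night, with a median of 0.0169%. It was above 0.4% in 9 of 12 day samples and 2 of 12 night samples, and below 0.1% in 3 and 9. The fitted change was -2.15 (log2, edgeR adjusted p for the gene 9.2e-06, DESeq2 adjusted p = 0.48). It was -3.33 without replicate 3 of CT16 on the control diet, and the call was lost without all samples numbered 1 (-1.44, edgeR adjusted p = 1.0) and between CT4 and CT16 (-1.58, edgeR adjusted p = 1.0). All 12 bases of the bin also lie inside Uchl1os, an antisense gene. The share of bin 19 of Hnrnpk ran from 0.0% to 1.63% by day, with a median of 0.243%, and from 0.0% to 1.16% at night, with a median of 0.0893%. It was above 0.4% in 4 of 12 day samples and 3 of 12 night samples, and the fitted change was -1.53 (log2, edgeR adjusted p for the gene 0.00011, DESeq2 adjusted p = 1.0). Leaving out replicate 2 or replicate 3 of CT8 on the MCD diet ended the call of Hnrnpk. It stood at -0.11 between CT4 and CT16 (edgeR adjusted p = 1.0), at -2.23 between CT8 and CT20 (edgeR adjusted p = 0.0017) and at -0.19 by limma (adjusted p = 0.99).

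Eef1a1 encodes the translation elongation factor that brings transfer RNAs to the ribosome, and its bin 22 is an extended first exon of Eef1a1-208. Its share was 0.0121% to 0.191% by day, with a median of 0.0580%, and 0.00983% to 0.632% at night, with a median of 0.187%. In 6 of 12 night samples it was above the highest day sample, and in 1 below the lowest. The fitted change was 1.57 (log2, edgeR adjusted p for the gene 1.5e-13), while DESeq2 gave an adjusted p of 0.25. The call held in each fit that left out 1 sample. Rian is an imprinted noncoding RNA that hosts small nucleolar RNAs. The annotation used here divides Rian into another number of bins than the files, so its bin 134 has no position here. The share was 0.0298% to 0.964% by day and 0.00413% to 0.924% at night, with medians of 0.104% and 0.0848%. The fitted change was -1.06 (log2, edgeR adjusted p for the gene 0.015, DESeq2 adjusted p = 0.44). With the replicate number as a block Rian was not called (-0.94, edgeR adjusted p = 0.29), and between CT8 and CT20 it stood at -0.34 (edgeR adjusted p = 1.0). The call of Rian was lost in 9 of the 24 fits that each left out 1 sample, with -0.65 without replicate 3 of CT4 on the control diet and -1.84, still called, without replicate 2 of CT20 on that diet. What sets the level of these 4 bins in single samples was not tested.

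**Figure D3:**
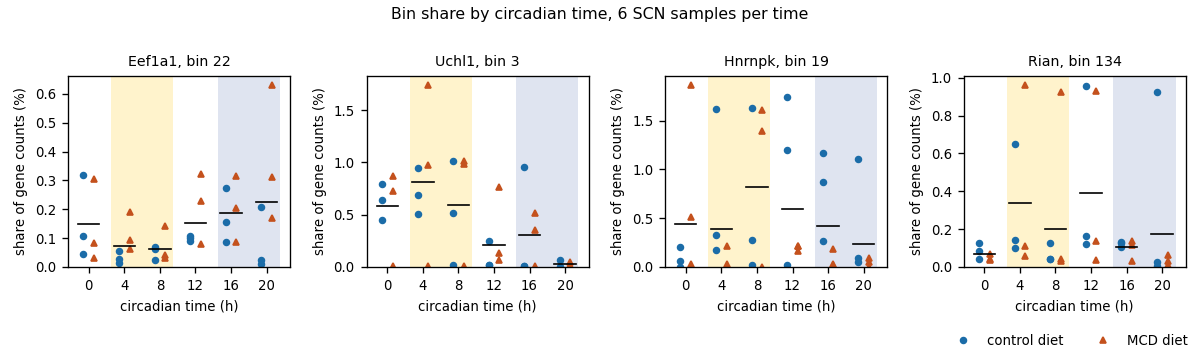
Share of the gene's counts (%, vertical axis) against circadian time (h, horizontal axis) for the leading bins of Eef1a1, Uchl1, Hnrnpk and Rian; each point is 1 SCN sample (circles control diet, triangles MCD diet), black lines are means of 6 samples, yellow marks the day times and blue the night times. Samples of 1 time spread from near 0 to the top of the range, as at CT8 for Hnrnpk.

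One further bin passed the test for bins while its gene did not. Bin 30 of Fn1, a coding exon of 270 bases in the gene for fibronectin, an extracellular matrix protein, took 0.0% to 2.65% of the gene's counts by day and 0.0% to 16.9% at night, with medians of 0.528% and 1.95%. Its fitted change was 2.86 (log2, edgeR adjusted p for the bin 0.040), and its mean count was 5.50 by day.

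Gene lists chosen for the SCN were counted next. Of 26 core clock genes, 25 were tested, edgeR called none for usage and DESeq2 called Dbp alone, beside 0.0861% and 0.626% of all genes tested. The totals of 16 of the 25 were lower and of 3 higher at night, beside 9.11% lower and 9.3% higher of all genes. Bin 7 of Dbp, kept only in retained-intron transcripts, rose from a median share of 1.64% by day to 2.54% at night (DESeq2 log2 change 0.72, DESeq2 adjusted p for the gene 0.0021, edgeR adjusted p = 1.0). The total of Dbp fell by 2.30 (log2), and the bin itself went from 6.28 to 2.06 CPM. Of the 12 cold-inducible and temperature-dependent genes, edgeR called none and DESeq2, beside 0.626% of all genes, called Rbm3, which encodes a cold-inducible RNA-binding protein. Bin 2 of Rbm3, 1806 bases of a long 3′ end, took 0.0% to 1.36% by day and 0.0% to 6.83% at night (DESeq2 log2 change 2.83, DESeq2 adjusted p for the gene 3.8e-05, edgeR adjusted p = 1.0). The total of Rbm3 fell by 1.40 (log2, edgeR adjusted p = 0.00017), and bin 2 rested on a mean of 15.3 counts by day.

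Among 24 SR proteins and their kinases, all tested, Srsf5 was the only call of edgeR, DESeq2 and limma, which called 0.0861%, 0.626% and 0.352% of all genes. Among 48 hnRNPs and neuronal splicing factors, 47 were tested, edgeR called Celf3 and Hnrnpk, and DESeq2 and limma each called Celf3 and Hnrnpdl, beside the same shares of all genes. Bin 5 of Hnrnpdl, an RNA-binding protein related to Hnrnpd, went from a median share of 1.57% by day to 3.06% at night (DESeq2 log2 change 0.78, DESeq2 adjusted p for the gene 0.018, edgeR adjusted p = 0.24), and the total of Hnrnpdl fell by 0.66 (log2, edgeR adjusted p = 3.6e-09). The median change over the 523 bins of the SR list was -0.01 and over the 1102 bins of the hnRNP list -0.02, beside -0.02 over all 172547 bins. Of 30 genes of cAMP, Ras and G protein signalling, edgeR called none and DESeq2 called 2, 6.67% of the list beside 0.626% of all genes. Gnao1 encodes the alpha subunit of the abundant brain G protein Go, and its bin 19, 4110 bases with no coding part, went from a median share of 11.3% to 13.5% at night (DESeq2 log2 change 0.32, DESeq2 adjusted p for the gene 0.0024). Pde7b, a phosphodiesterase that breaks down cAMP, used bin 19 more at night, at a median of 2.89% against 1.67% by day (DESeq2 log2 change 0.66, DESeq2 adjusted p for the gene 0.025).

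None of the other 7 lists held a gene called by edgeR or DESeq2, which at 0.0861% and 0.626% of all genes is near the background for lists of this size. They were 25 heat shock proteins and chaperones (23 tested), 44 potassium and calcium channels (39 tested), 23 sodium channels and other conductances (23 tested), 31 neurexins and adhesion genes (31 tested), 30 glutamate and GABA receptors (28 tested), 28 scaffold and activity-dependent genes (24 tested) and 17 neuropeptides and receptors (17 tested). At an unadjusted p under 0.05, edgeR gave 2522 of all 172547 bins and DESeq2 8516. Evenly spread p-values would put a share of 0.05 of the bins there, and the edgeR count fell well short of that. Its few calls therefore do not show that the other genes kept their usage. In the heat shock list 16 of 23 genes were higher at night in their total, and none lower, beside 9.3% and 9.11% of all genes.

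In all, 19 genes were called by both DESeq2 and limma but not by edgeR, Gnao1 and Hnrnpdl among them. The 6 named next are in none of the lists and were chosen after their values were seen. In Dlk1, an imprinted gene for a Notch-related membrane protein, the last bin of 2636 bases took 26.7% to 32.9% by day and 19.5% to 26.5% at night, with no overlap (DESeq2 log2 change -0.42, DESeq2 adjusted p 1.8e-07). In Cxcl12, a chemokine gene, bin 10 had a median share of 34.6% by day and 19.0% at night (DESeq2 log2 change -1.25, DESeq2 adjusted p 1.1e-05). The total of Cxcl12 rose by 0.94 (log2, edgeR adjusted p = 2.3e-08), while bin 10 stood at 7.67 and 8.45 CPM. Dclk1, a microtubule-associated kinase gene, used bin 19 more at night, with medians of 6.38% and 9.83% (DESeq2 log2 change 0.61, DESeq2 adjusted p 9.0e-05). All 4744 bases of that bin overlap Gm21954, a protein-coding gene on the opposite strand. The last bins of Rprd2 and Zfp560 had higher shares at night (DESeq2 log2 changes 0.89 and 1.32), and that of Meaf6 a lower share (-0.39). Of the 17 of these 19 leading bins that matched GENCODE M21, 6 were the bin at the 3′ end of the gene, 3 higher and 3 lower at night. The median length of the 17 was 2784 bases. Among all matched bins, 4.64% were at the 3′ end and the median length was 113 bases. The 3′-end bins among all matched bins had a median log2 change of 0.0216, beside -0.0201 over all matched bins. More of these 3′-end bins were thus higher than lower at night relative to their gene. The part of this general lean in the changes of single genes was not tested.

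The change was then tested within each diet, from 1 model over all 24 samples with a shared spread, so that each diet's calls depend in part on the other's samples. On the control diet 4 genes were called, 0.0313% of those tested: Rcan1, Kif1bp, Eef1a1 and Nnat. Without replicate 2 of CT20 on the control diet there were 7. On the MCD diet 9 were called, 0.0704%: Hnrnpk, Rian, Rpl41, Eef1a1, Mat2a, Celf3, Kif1bp, Arhgef2 and Uchl1. Both diets shared Kif1bp and Eef1a1. Bin 1 of Kif1bp changed by -2.66 on the control diet and -2.26 on the MCD diet, and bin 22 of Eef1a1 by 1.53 and 1.61 (log2). Bin 12 of Rcan1 changed by -3.23 on the control diet, and its value on the MCD diet was -1.60 (edgeR adjusted p = 1.0), but the difference between the diets did not pass the test (edgeR adjusted p = 1.0). Bin 42 of Celf3 changed by 1.62 on the MCD diet and its value on the control diet was 0.61, again with no difference that passed (edgeR adjusted p = 1.0).

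**Figure D4:**
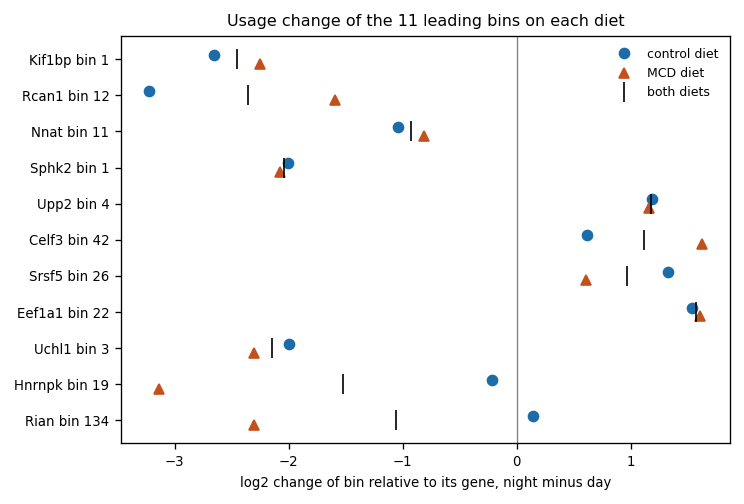
Log2 change of the leading bin relative to its gene, night minus day (horizontal axis), on the control diet (circles), on the MCD diet (triangles) and over both (vertical marks), for the 11 genes. The values of Kif1bp, Sphk2, Upp2 and Eef1a1 lie close together on the diets, and those of Hnrnpk and Rian lie furthest apart.

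The difference between the diets passed in 6 genes, 0.047% of those tested: Rpl41, Rian, Mat2a, Hnrnpk, Rps19 and Gapdh. Mat2a encodes the enzyme that makes S-adenosylmethionine from methionine, the nutrient the MCD diet lacks, and its transcript is known for an intron whose removal responds to S-adenosylmethionine. Its bin 9 is a stretch of 241 bases found in Mat2a-202 alone. On the control diet the share of bin 9 was 0.481% to 1.27% by day, with a median of 0.653%, and 0.603% to 2.57% at night, with a median of 1.17%. On the MCD diet it was 0.982% to 2.70% by day, with a median of 1.73%, and 0.143% to 0.393% at night, with a median of 0.242%. The MCD day and night samples (6 each) did not overlap, while those of the control diet did. The change on the MCD diet minus that on the control diet was -3.58 (log2, edgeR adjusted p for the gene 0.00016). The total of Mat2a was 166 ± 9.1 CPM by day and 137 ± 14 CPM at night on the control diet, and 122 ± 14 and 315 ± 52 CPM on the MCD diet (SD, n = 6 each). Bin 9 itself went from 2.16 ± 0.98 CPM by day to 0.800 ± 0.32 CPM at night on the MCD diet (SD, n = 6 each). Bin 8, next to it, had a difference of -3.53.

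For Hnrnpk, bin 19 had median shares of 0.300% by day and 0.569% at night on the control diet, and of 0.121% and 0.0425% on the MCD diet. The other 4 genes had groups in which 1 sample stood far above the rest. Bin 7 of Rpl41, a ribosomal protein gene, reached 11.6% in 1 of the MCD night samples, where its median was 0.254%. In the control samples more than 1 sample of each side was high. There the bin reached 12.7% by day (mean 4.337%, median 0.355%) and 10.3% at night (mean 3.365%, median 0.284%). Leaving out replicate 1 of CT16 on the MCD diet ended the call of Rpl41, and its values over all alternatives ran from 0.38 to 5.62. Without the same replicate Rps19 stood at 0.94 (edgeR adjusted p = 1.0), and without replicate 3 of CT8 on the control diet at 1.81, also with no call. Gapdh stood at -1.32 without replicate 1 of CT16 on the control diet and at -1.88 without replicate 1 of CT8 on the MCD diet (edgeR adjusted p = 1.0 for each). Leaving out replicate 2 of CT8 on the control diet or replicate 1 of CT16 on the MCD diet also ended its call, at -3.12 and -3.14. Rian stood at -0.99 without replicate 2 of CT20 on the control diet, at -1.83 without replicate 1 of CT4 on the MCD diet and at -1.88 without replicate 1 of CT8 on the MCD diet, with no call in any of these fits. Hnrnpk lost its call without replicate 2 or replicate 3 of CT8 on the MCD diet (-2.39 and -2.21). With the replicate number as a block, Rpl41 (2.91, edgeR adjusted p = 1.0), Rps19 (2.44, edgeR adjusted p = 0.096) and Gapdh (-1.92, edgeR adjusted p = 1.0) were not called, and with sex as a term Rpl41 (3.13) and Gapdh (-2.98) were not called. The call of Mat2a held without any 1 sample and with either term, and was lost without all samples numbered 1 (-3.37, edgeR adjusted p = 0.72) or 2 (-3.61, edgeR adjusted p = 0.29). The values of all 6 genes stand with the results marked for a closer look.

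The pairs of times 12 h apart split the samples that gave the calls, so shared directions are no independent support. Both pairs gave the same directions for the 7 genes that DESeq2 also called, and for Eef1a1, Uchl1, Hnrnpk and Rian too. Between CT4 and CT16, 6 genes were called, and between CT8 and CT20, 12 genes. Bin 12 of Rcan1 changed by -2.58 from CT4 to CT16 and by -2.07 from CT8 to CT20, bin 1 of Kif1bp by -1.93 and -3.45, and bin 1 of Sphk2 by -2.18 and -1.85 (log2). Bin 11 of Nnat changed by -0.95 and -0.96, bin 4 of Upp2 by 1.02 and 1.33, bin 42 of Celf3 by 1.30 and 0.92, and bin 26 of Srsf5 by 1.04 and 0.91. Of these 7, only Kif1bp passed in both pairs, each with 6 samples a side.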

How the data were processed

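The deposited files hold whole-number counts of reads per exon bin, one file per sample, made by the authors, and their values (whole numbers with totals that differ between samples) show no normalization. The submitters' processing notes name Trimmomatic, HISAT2, StringTie and DESeq2 with the build GRCm39, without their roles, and no source used here gives the counting options. The files held 472109 bins in 55969 gene units, and reads outside bins (3.84% to 6.13% over the 24 samples) stayed out of all totals.

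Bins with too few counts were removed (filterByExpr, minimum count 10, side as group), as were genes with fewer than 2 bins left, and TMM scaling was applied. Usage was tested with edgeR 4.0.16 in R 4.3.3 (glmQLFit and diffSpliceDGE, robust dispersions, diet as covariate, Simes p per gene, Benjamini-Hochberg adjustment, threshold 0.05). Log2 changes are the bin relative to the average of its gene, night minus day, and gene totals were tested with glmQLFTest on summed bins. The diets were fitted as 4 groups of diet and side with one spread. DESeq2 1.42.0 (each bin against the other bins of its gene) and limma 3.58.1 (voom and diffSplice) were alternatives, and the fitting code was tested on simulated data. Shares are percentages of the counts of all tested bins of the gene, and CPM uses the sum of all bin counts. The labels give the sex of each replicate, and no other detail of the replicates was used.

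Bins carry no coordinates in the files. Positions come from GENCODE M21 (GRCm38), divided in the same way and matched by gene and bin number where the number of bins was equal (48845 of 51288 shared genes, 95.24%), which does not prove that each bin is the same stretch. No coordinates were converted between builds. All genes called for both diets together were named, as fewer than 25 were called. The comparison, the gene lists and the rule were chosen with earlier results of these data known. The precision of a bin follows its counts, which can differ by side: bin 12 of Rcan1 held a mean of 119 counts by day and 11.5 at night.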

Additional observations from a re-analysis of the deposited data

Results flagged for a closer look

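The change of usage from day to night differed between the diets in 6 genes by the edgeR test of that difference (MCD minus control diet, log2, leading bin, 6 samples in each combination of diet and side). It was -2.45 for bin 134 of Rian, 4.46 for bin 7 of Rpl41, -2.92 for bin 19 of Hnrnpk, -3.58 for bin 9 of Mat2a, 2.91 for bin 23 of Rps19 and -3.35 for bin 21 of Gapdh. Adjusted p-values for the genes from edgeR were 8.7e-05 for Rian, 8.3e-05 for Rpl41, 0.00016 for Hnrnpk and for Mat2a, 0.00099 for Rps19 and 0.0087 for Gapdh. Of these, Rpl41, Rps19 and Gapdh were not called with the replicate number as a block, and all but Mat2a lost the call without some single sample.

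Within these bins, single samples stood far from the other 5 of their diet and side. The highest sample held 23.7% for bin 21 of Gapdh in control night samples and 12.8% in MCD day samples. It held 0.651% for bin 134 of Rian in control day samples and 0.924% in control night samples. It held 11.6% for bin 7 of Rpl41 in MCD night samples, 5.25% for bin 23 of Rps19 in control day samples, 7.04% for the same bin in MCD night samples, and 2.49% for bin 8 of Mat2a in MCD day samples. Chance marks about 1 in 20 groups of normally spread values, and 28 groups were looked at. The bins were chosen for a called difference between the diets, so that rate is no yardstick for them. A sample far from the rest can itself move such a difference. Bin 9 of Mat2a had no such sample, and its call held in each fit that left out 1 sample.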

How the results depend on the processing

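The count of 11 genes was 6 with CT4 against CT16, 80 with DESeq2, 45 with limma, 29 with the gene-level F test (0.227% of genes) and 18 with no filter on low counts. The count of 16 bins was 9 with CT4 against CT16, 95 with DESeq2 and 48 with limma. With no filter the control diet gave 8 genes and the MCD diet 20. The difference between the diets gave 3 genes at a minimum count of 50. Leaving out all samples of 1 replicate number gave 5 to 18 genes, 6 to 28 bins, 1 to 7 genes on the control diet, 6 to 20 on the MCD diet, 1 to 9 for the difference and 1039 to 2684 for gene totals. Each of these highest counts came without replicate 3, the samples labelled female. Leaving out single samples gave 9 to 14 genes, 14 to 19 bins, 3 to 7, 8 to 13 and 4 to 7 genes for the diets and their difference, and 2079 to 2539 gene totals. The cause was not tested. For Rian the change ran from -2.12 to 0.051 when 1 replicate number was left out, and turned positive without number 1. Keeping joined gene identifiers could not be run as another setting, since the files hold 0 of them.

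Replicate numbers mark sex and nothing says that they pair mice. Of 84 pairs of samples with the same number, 40 had deviations that correlated above 0.1, beside 21 of 168 pairs with different numbers (mean r 0.09 and -0.04). As not every pair with the same number passed 0.1, the numbers were not taken as pairs. Samples with the same number were still more alike than samples with different numbers, and the main fit has no term for the number. What samples with the same number share was not tested. With the number as a replicate block, 9 genes were called for usage, without Rian and Srsf5, and 3 for the difference between the diets, without Rpl41, Rps19 and Gapdh.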
